A study of Mus musculus with 12 samples.

Results

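Cyclic AMP and cyclic GMP are small signals whose level in a cell is set by the enzymes that make them and the enzymes that break them down. The 35 genes described here are the 10 adenylyl cyclases (Adcy) and the 25 phosphodiesterases (Pde) found by symbol among the 22609 genes of the count tables. The family was chosen from the rise of 1 member, Pde9a, above proliferating cells at every differentiating time point. Its values are therefore given as a description, with no test against those cells, and Pde9a stays out of the counts of genes in those comparisons. The cells were adherent neural stem (ANS) cells, progenitors that grow attached to the dish, taken from normal mouse brain at embryonic day 14.5. At T0 (3 libraries) they proliferated in growth medium with EGF and FGF2. T1 (3 libraries) was 2 days after a change to medium D1, in which both growth factors are reduced, and the labels describe proliferation as much reduced. T2 (4 libraries) was 2 days after the following change to medium B, which holds FGF2 and BDNF but no EGF, and T3 (2 libraries) was 10 days after that change by the labels, with overt differentiation. No gene was altered in any group, all groups are mixed cultures of 1 progenitor type, and the time points differ in medium as well as in time.

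Adenylyl cyclases turn ATP into cAMP. Those in the plasma membrane are activated by the Gs class of G protein and differ in how calcium, calmodulin, Gi and the beta-gamma subunits act on them. Phosphodiesterases hydrolyse cAMP, cGMP or both, and their families differ in the cyclic nucleotide they prefer and in their control by calmodulin, cGMP or phosphorylation. In neurons these enzymes shape the signals that reach protein kinase A, ion channels and the transcription factor CREB.

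The libraries held 8910724 to 16631614 reads on genes (median 12601169), and values are given as CPM, the reads of a gene scaled to a library of 1000000 reads on genes. T0 replicate 3 stood apart from the other T0 libraries. A chi-square statistic per gene, near 1 for sampling noise alone, was 101 and 105 against replicates 1 and 2, which differed from each other by 3.28. The T3 pair differed by 34.1. The summed level of 7 neuronal markers was 14.95 to 61.3 CPM in the T0 libraries, 443.8 to 501.1 at T1, 575.6 to 718.7 at T2 and 483.5 to 1039 at T3. Dcx, Mapt and Tubb3 made up most of it. Rbfox3, Snap25 and Syt1 were at most 3.09 CPM in any library, and Stmn2 had at most 3 reads. The culture protocol is meant to yield GABAergic neurons. The summed level of 7 GABAergic markers was at most 7.80 CPM at T0 and between 26.05 and 58.96 CPM in the later libraries. Of the later sum, Gad1 gave 23.89 to 55.81 CPM, while Gad2, Slc32a1, Dlx5 and Dlx6 had at most 3 reads in any library. Dlx1 went the other way, from 3.07 to 3.60 CPM at T0 to 1.842 and 2.045 CPM at T3. Dlx2 was at most 0.279 CPM in any library. The sum of 4 markers of proliferating cells was 1175 to 1796 CPM at T0, 65.0 to 171.4 CPM at T1, 95.27 to 214.7 CPM at T2 and 370.8 to 641.7 CPM at T3. The sum of 7 astrocyte markers was 2090 to 3200 CPM at T0 and overlapped it at T1 (2450 to 3022), T2 (2116 to 3061) and T3 (1848 to 2196). Aldoc made up most of this sum, and its members went both ways. Gja1 had 179.0 to 342.3 CPM at T0 and 155.3 and 135.8 CPM at T3. Slc1a2 had 32.09 to 331.2 CPM at T0 and 735.7 and 375.6 CPM at T3. Gfap was at 0.494 CPM in T0 replicate 3 and at 146.9 and 149.6 CPM in the other T0 libraries. The sum of 8 markers of the oligodendrocyte lineage was 3184 to 3621 CPM in the T0 libraries, 3973 to 4242 in those of T1, 3964 to 4539 in those of T2 and 5013 to 5961 in those of T3. All later libraries thus lay above T0. Olig1 and Olig2 made up most of the latter sum, and its members went both ways, with Pdgfra at 3.67 to 30.08 CPM at T0 and 67.49 to 228.6 CPM later, and Sox10 at 0.705 to 3.38 CPM at T0 and at most 0.669 CPM later. Microglial markers were at most 0.555 CPM in sum with all 5 at no more than 3 reads, and the endothelial and mural list was at most 2.68 CPM. The part of these shifts in the values below was not tested, and in whole cultures fewer cells of a type and less RNA per cell cannot be told apart.

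For sequence context, the RefSeq promoter windows (GRCm38.p6, 250 bases before to 50 after a start site) were searched for the full cAMP response element TGACGTCA, to which CREB binds, and for its half-site TGACG on either strand. The full element contains the half-site. Windows were found for 26 of the 35 genes, and those of Adcy6, Adcy8, Pde3a, Pde3b, Pde6a, Pde6c, Pde6g, Pde7a and Pde9a were not in the table. The full element was in the windows of 0 of the 26 genes, beside 2.03% of all 27025 genes with a window. The half-site was in those of 9 of them (34.6%), beside 23.0% of all genes. These genes have more windows per gene than the rest, and counted by window the order turned, with the half-site in 18.0% of their 50 windows and in 20.8% of all 32851. The 4 matches in genes whose level changed in the tests below are shown, with the half-site in capitals and read along the gene's strand:
Adcy7 (chr8:88282953-88282979, plus strand, bases -28 to -24 from the start): gatcatagagcCGTCAggggggtgggg
Adcy9 (chr16:4420507-4420533, minus strand, bases -24 to -20 from the start): ggacccggcggTGACGtgcgcgggccg
Pde1a (chr2:80039053-80039079, minus strand, bases -166 to -162 from the start): taacttcagccCGTCAttcctcagtaa
Pde2a (chr7:101450523-101450549, plus strand, bases 15 to 19 from the start): gggcgcaggagCGTCAcggctgctgca
The other 5 matches were in Pde4a, Pde4b, Pde6h, Pde8a and Pde8b. A match is a run of letters and not a measured binding site.

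Levels of different genes were compared on the deposited FPKM values, which are scaled to transcript length. Adcy2, a cyclase stimulated by Gs and by beta-gamma subunits, was the most abundant cyclase message in all 12 libraries. It held 66.5% to 69.3% of the summed Adcy FPKM at T0 and 77.8% to 85.1% at T1. Its share was 71.2% to 81.1% in the T2 libraries, and 65.3% and 75.3% in the T3 libraries. Adcy6, a cyclase inhibited by calcium and by Gi, came next at every time point with mean FPKM of 21.3, 21.7, 19.1 and 19.3. The places behind these changed. At T0 the next cyclase was Adcy3 with 4.88 FPKM (range 3.57 to 6.15), while Adcy5 and Adcy1 stood at 0.344 and 0.969 FPKM. At T3 Adcy1 (6.51 and 7.52 FPKM) and Adcy5 (5.43 and 6.63) both lay above Adcy3 (2.74 and 4.43), and the ranges of Adcy1 and Adcy5 overlapped. Summed over the 10 genes, the Adcy FPKM was 89.4 ± 1.08 (SD, n = 3) in the T0 libraries and 171 ± 29.5 (SD, n = 3) in those of T1. The T2 sum was 140.0 ± 22.4 (SD, n = 4) and the T3 sum 128 ± 3.72 (SD, n = 2). All later libraries lay above all T0 libraries.

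Among the phosphodiesterases, Pde1b, a calmodulin-activated enzyme of both cyclic nucleotides, had the highest mean FPKM at every time point, with 64.6, 86.8, 63.3 and 39.3 FPKM. Pde6d followed at T0 with 35.8 FPKM. Despite its name its product is not a cyclic nucleotide phosphodiesterase but a carrier of prenylated proteins. The cAMP enzymes Pde4b (32.5 FPKM) and Pde7a (25.2 FPKM) came next at T0. Pde2a, which degrades both nucleotides and is stimulated by cGMP, moved from rank 8 at T0 (6.46 FPKM) to rank 3 at T2 (24.6 FPKM) and T3 (27.6 FPKM). At T3 the mean of Pde9a (37.98 FPKM) ranked 2, but its libraries held 63.3 and 12.7 FPKM and enclosed those of Pde1b, Pde6d and Pde2a, so its rank was not separable from theirs. Summed over the 25 genes, the Pde FPKM was 209 ± 10.3 (SD, n = 3) in the T0 libraries and 231 ± 19.7 (SD, n = 3) in those of T1. The T2 sum was 216 ± 7.59 (SD, n = 4) and the T3 sum 206 ± 45.1 (SD, n = 2), and every time point overlapped T0.

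**Figure D1:**
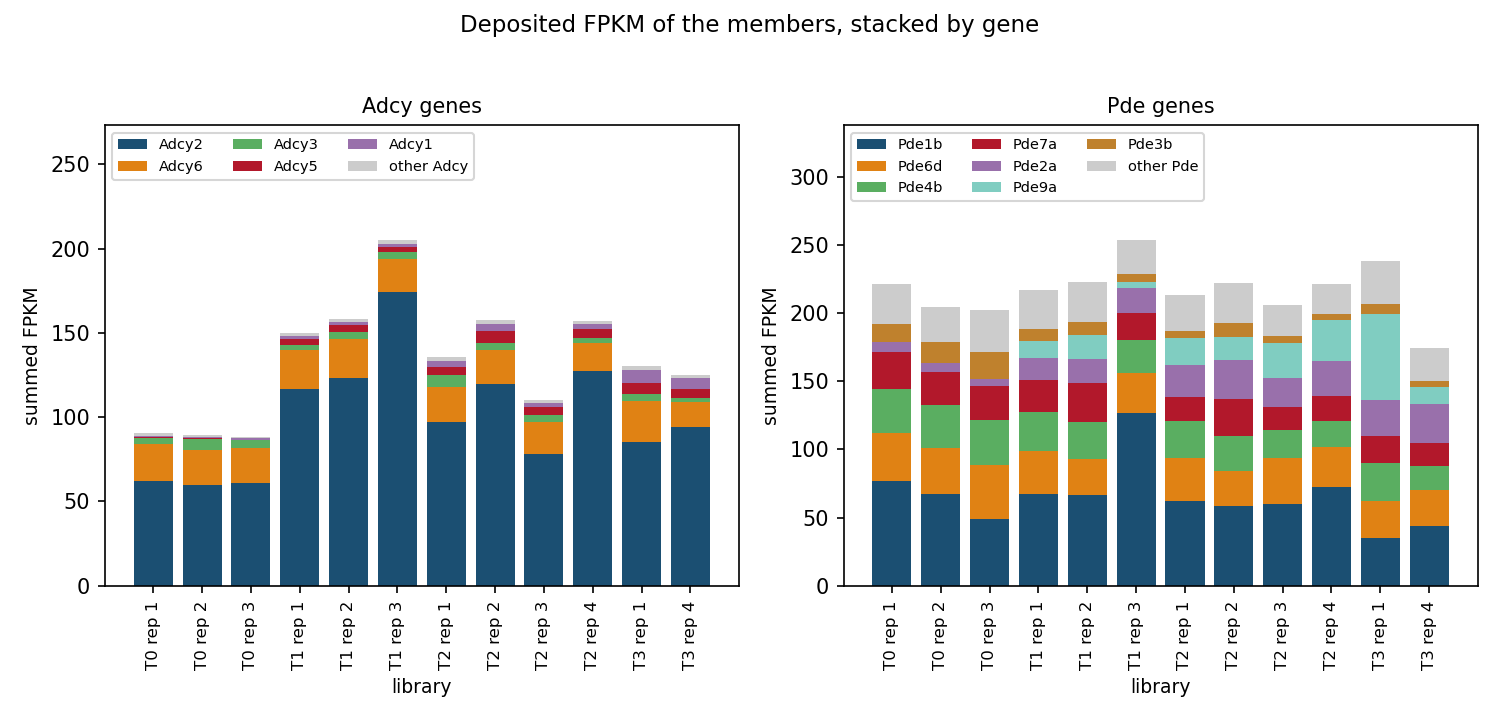
Bars give the summed FPKM of the Adcy genes (left) and the Pde genes (right) in each of the 12 libraries, stacked by gene. Adcy2 fills most of every Adcy bar and the later bars stand above those of T0 (88.2 to 90.4), whereas the Pde bars overlap and gain Pde9a and Pde2a.

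Pde9a encodes a phosphodiesterase with high affinity for cGMP, and lies on chromosome 17 from 31523179 to 31613255 of mm9 on the plus strand. Its T0 libraries held 2, 1 and 6 reads (0.150, 0.0698 and 0.423 CPM). The T1 libraries held 134, 261 and 87 reads (11.55, 19.5 and 5.30 CPM), and the T2 libraries 30.2, 23.42, 33.58 and 37.23 CPM. The T3 libraries were far apart, with 89.11 CPM in replicate 1 and 21.96 CPM in replicate 4. Every later library lay above every T0 library. T3 replicate 4 was below all T2 libraries and T3 replicate 1 above all of them. Scaled to library size, the pooled reads of T1, T2 and T3 were 55.1, 156 and 294 times those of T0, as a description that rests on 9 reads at T0 and, at T3, on 2 libraries far apart.

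**Figure D2:**
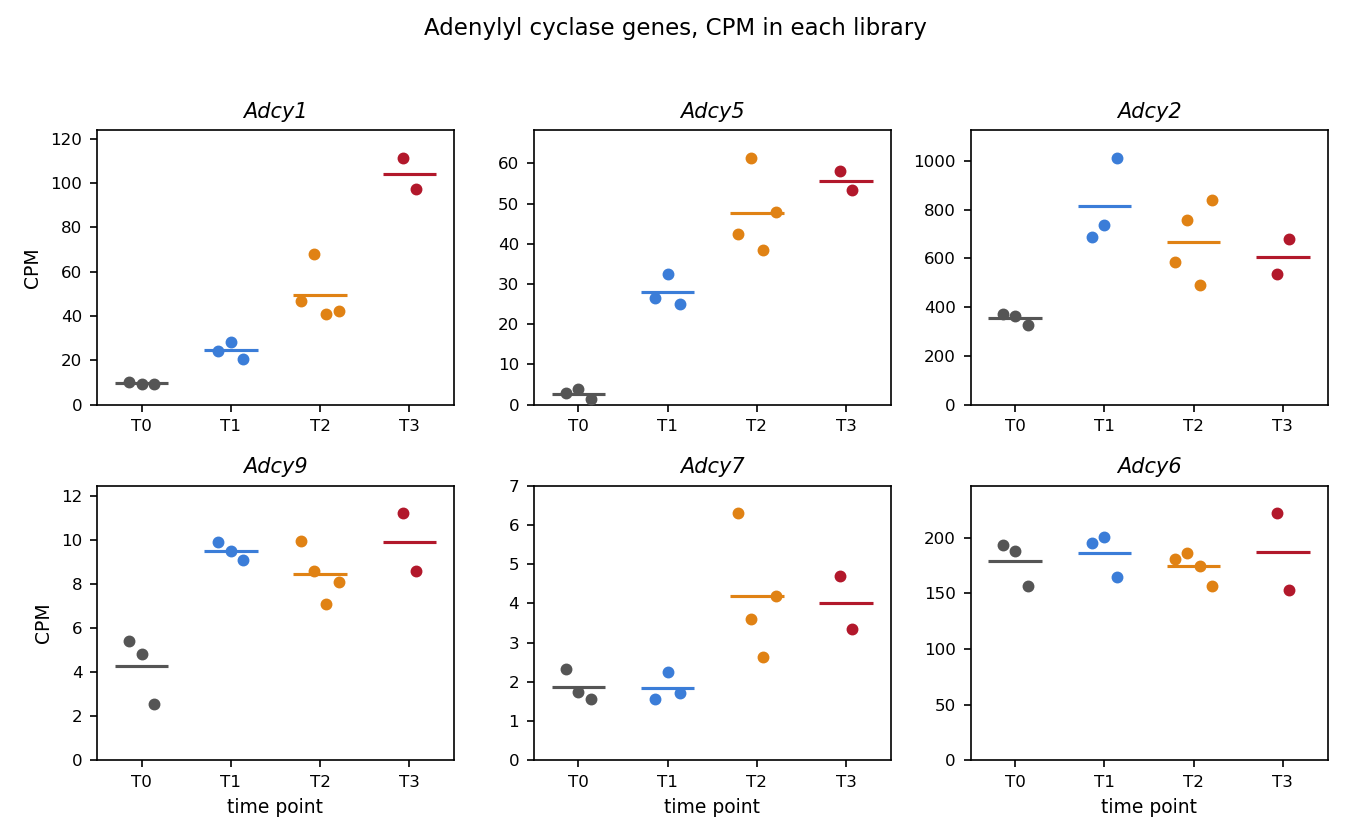
Each point is the CPM of one library (vertical axes start at 0) and each line the mean of a time point, for 6 adenylyl cyclase genes. The points of Adcy1 rise at every step, those of Adcy5 leave T0 without overlap, and those of Adcy6 overlap at all time points.

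Of the 35 genes, 24 had enough reads for the edgeR quasi-likelihood test, with the adjustment by Benjamini and Hochberg over all genes tested and a threshold of 0.05. Besides Pde9a, which was not counted, 5 of 23 were higher and 2 lower at T1 than at T0, where 15.1% of all 12364 genes tested were called higher and 16.8% lower. At T2 these were 8 higher and 2 lower, beside 21.4% and 21.8% of 12607 genes. At T3 they were 3 higher and 0 lower, beside 3.31% and 1.41% of 12721 genes. At T3, 8 of the 23 were higher and 1 lower at an unadjusted p under 0.05, as were 3350 of all genes in either direction, and DESeq2 called 6 higher and 1 lower. The median log2 fold change of the 23 genes was 0.14, 0.28 and 0.30 in these comparisons, in the same order, and that of all genes tested -0.01, 0.00 and -0.01. The 3 comparisons share the T0 libraries. With T0 replicate 3 left out, 6 were higher and 4 lower at T1, 9 and 3 at T2, and 5 and 2 at T3. The shares of all genes called by DESeq2 or with a library left out are not given. Such counts, here and below, therefore have no background beside them. At T3, 0 of the 23 were called when T3 replicate 1 or T3 replicate 4 was left out, and 1 without T0 replicate 1.

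**Figure D3:**
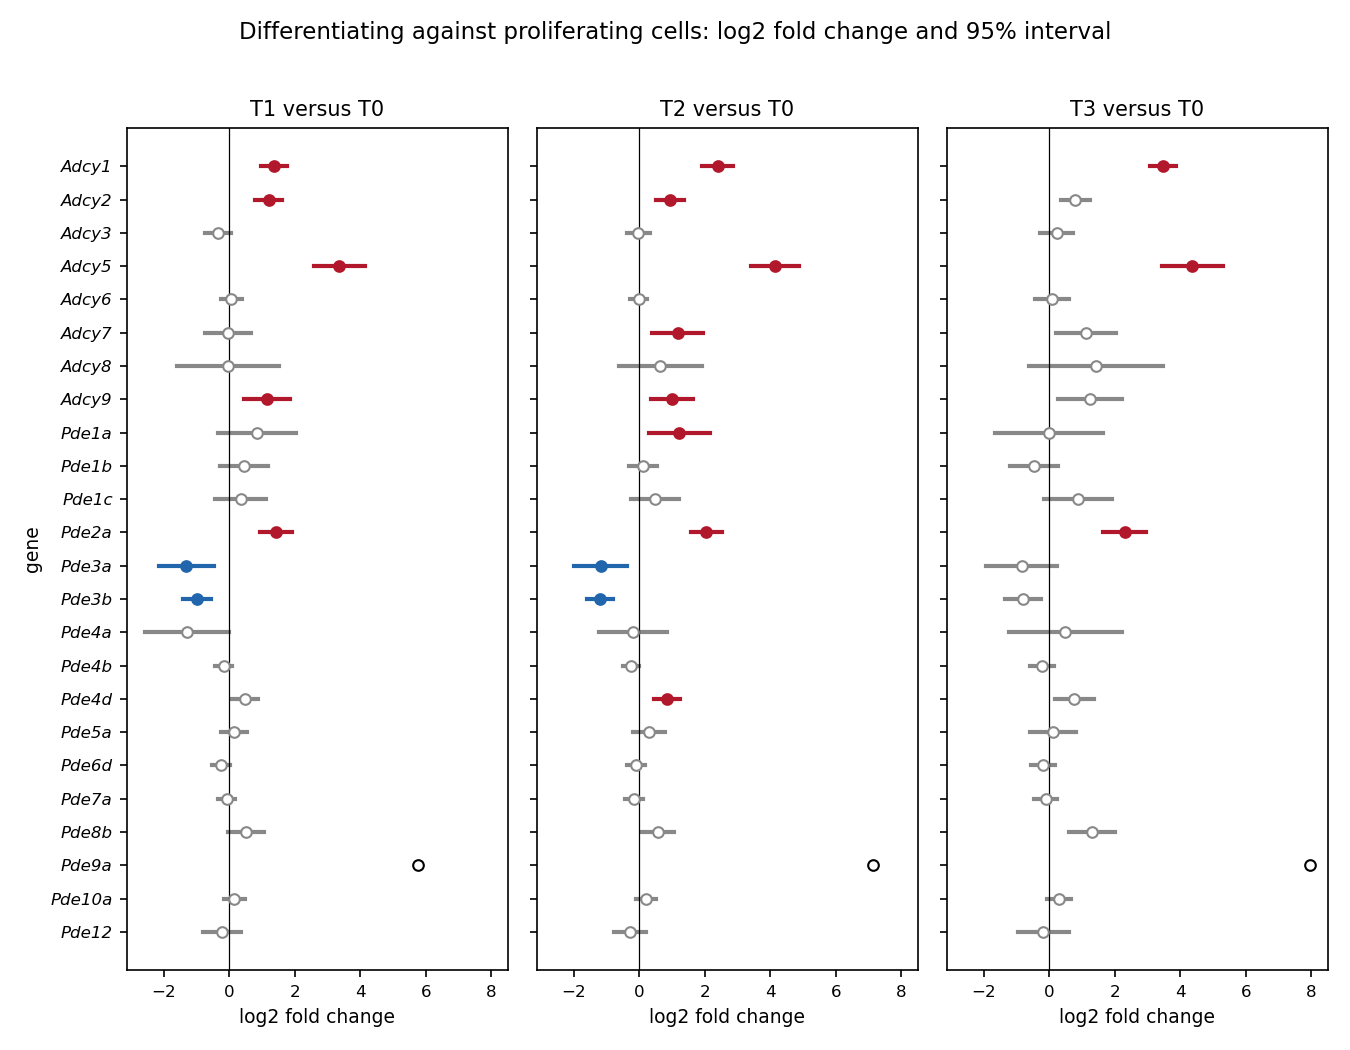
Log2 fold change (horizontal axis) against T0 with its 95% interval for the 24 tested genes at T1, T2 and T3. Filled red marks are called higher, filled blue marks called lower, open grey marks not called, and the open black mark is Pde9a, which chose the family and has neither test nor interval. Adcy1, Adcy5 and Pde2a are red in all panels.

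The cyclases that rose most were Adcy1 and Adcy5. Adcy1 (chromosome 11, 6963492 to 7078509, mm9) encodes the neuronal cyclase stimulated by calcium and calmodulin, known for its part in synaptic plasticity. It stood at 10.05, 9.35 and 9.17 CPM at T0, at 24.22, 28.39 and 20.73 CPM at T1, at 46.82, 67.95, 40.86 and 42.45 CPM at T2, and at 111.5 and 97.08 CPM at T3. No library of one time point overlapped those of the next. On the log2 scale its difference from T0 was 1.35 at T1 (with SE 0.17, edgeR adjusted p = 0.0019), 2.39 at T2 (with SE 0.21, edgeR adjusted p = 0.00011) and 3.47 at T3 (with SE 0.17, edgeR adjusted p = 0.0055). The T3 call was lost without T3 replicate 1 (edgeR adjusted p = 0.098) or replicate 4 (0.054), and the T1 and T2 calls held with any 1 library left out.

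Adcy5 (chromosome 16, 35154963 to 35305823) encodes a cyclase inhibited by Gi and by calcium that is best known as the main cyclase of the striatum. It had 2.93, 3.77 and 1.48 CPM at T0. At T1 it had 26.63, 32.5 and 25.0 CPM, at T2 42.52, 61.47, 38.58 and 47.8 CPM, and at T3 58.04 and 53.39 CPM. All later libraries lay above all T0 libraries, and every T2 library above every T1 library. The rise was 10.2-fold at T1 (95% interval 5.98 to 17.5), 17.6-fold at T2 (10.7 to 29.1) and 20.6-fold at T3 (10.8 to 39.3), with edgeR adjusted p = 0.00083, 7.8e-05 and 0.014. Without T0 replicate 3, in which its level was lowest, the log2 fold changes were 3.06, 3.84 and 4.07 against 3.36, 4.14 and 4.36 with it. At T3 the call was lost without T0 replicate 1 (edgeR adjusted p = 0.068), T3 replicate 1 (0.14) or T3 replicate 4 (0.069). The summed level of the 8 striatal projection neuron markers found was 3.67 to 18.76 CPM at T0 and at most 4.10 CPM in any later library, with Drd2 and Tac1 at no more than 3 reads.

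Adcy2 (chromosome 13, 68758920 to 69138419), the most abundant cyclase, had 369.7, 363.3 and 327.2 CPM at T0 and 686.7, 739.1 and 1014 CPM at T1. It had 585.4, 756.1, 492.2 and 838.2 CPM at T2 and 535.7 and 678.2 CPM at T3. Every later library lay above T0, and the later time points overlapped one another. The difference from T0 on the log2 scale was 1.20 at T1 (with SE 0.18, edgeR adjusted p = 0.0034), 0.93 at T2 (with SE 0.19, edgeR adjusted p = 0.0049) and 0.80 at T3 (with SE 0.18, edgeR adjusted p = 0.062). The first of these held with any 1 library left out, as did the second. The T3 difference passed the threshold without T0 replicate 3, by DESeq2 and in one fit of all 12 libraries.

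Lower in abundance, Adcy9 (chromosome 16, 4287529 to 4420498), a widely expressed cyclase that responds poorly to forskolin, had 5.40, 4.81 and 2.54 CPM at T0 and 9.91, 9.49 and 9.09 CPM at T1. At T2 it had 9.94, 8.61, 7.10 and 8.11 CPM and at T3 11.22 and 8.61 CPM, all above T0. It rose at T1 (log2 fold change 1.15 with SE 0.29, edgeR adjusted p = 0.025) and at T2 (1.00 with SE 0.28, edgeR adjusted p = 0.020), and its T3 value of 1.24 did not pass (edgeR adjusted p = 0.12). The T1 call was lost without any 1 of the T1 libraries (edgeR adjusted p = 0.072 to 0.093) and the T2 call without T2 replicate 1 (0.06). Without T0 replicate 3 the values were 0.89 at T1 and 0.74 at T2, both called. The Adcy9 promoter window holds the half-site shown above.

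Adcy7 (chromosome 8, 90796302 to 90853861), a beta-gamma-stimulated relative of Adcy2 known from blood cells, was low. It had 2.33, 1.74 and 1.55 CPM at T0 and 1.55, 2.24 and 1.71 CPM at T1, which overlapped. At T2 it had 6.31, 3.61, 2.64 and 4.18 CPM and at T3 4.69 and 3.34 CPM. Its T2 rise (log2 fold change 1.17 with SE 0.34, edgeR adjusted p = 0.023) was lost without T0 replicate 2 (0.066), T2 replicate 1 (0.059) or T2 replicate 4 (0.055). In the deposited FPKM values the difference did not pass by limma (adjusted p = 0.21 with a pseudocount of 1).

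Adcy6 (chromosome 15, 98420425 to 98438064), in the same class as Adcy5, did not pass in any comparison. It had 193.2, 188.3 and 156.5 CPM at T0, 195.1, 200.3 and 164.8 at T1, 181.2, 186.5, 174.2 and 156.8 at T2, and 222.2 and 152.6 at T3. All time points overlapped. Its log2 fold change at T2 was -0.02 with a 95% interval from -0.28 to 0.24, an interval that leaves out the changes of Adcy1, Adcy2 and Adcy5 but not a small one. Adcy3, a calcium-regulated cyclase known from olfactory neurons and primary cilia, had 13.65, 13.75 and 12.55 CPM at T0 and 10.0, 11.88 and 9.57 CPM at T1, and then 13.86, 14.72, 12.01 and 11.18 CPM at T2 and 14.66 and 16.04 CPM at T3. Its T1 libraries lay below T0 without a call (log2 fold change -0.35, edgeR adjusted p = 0.14), though without T0 replicate 3 it was called (0.048). Of its exon bases, 22.1% overlap those of Cenpo, and since the strand setting of the counting is not given, reads of the pair may not be separable. Adcy8, another calmodulin-stimulated cyclase, had 2 to 38 reads a library and did not pass.

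**Figure D4:**
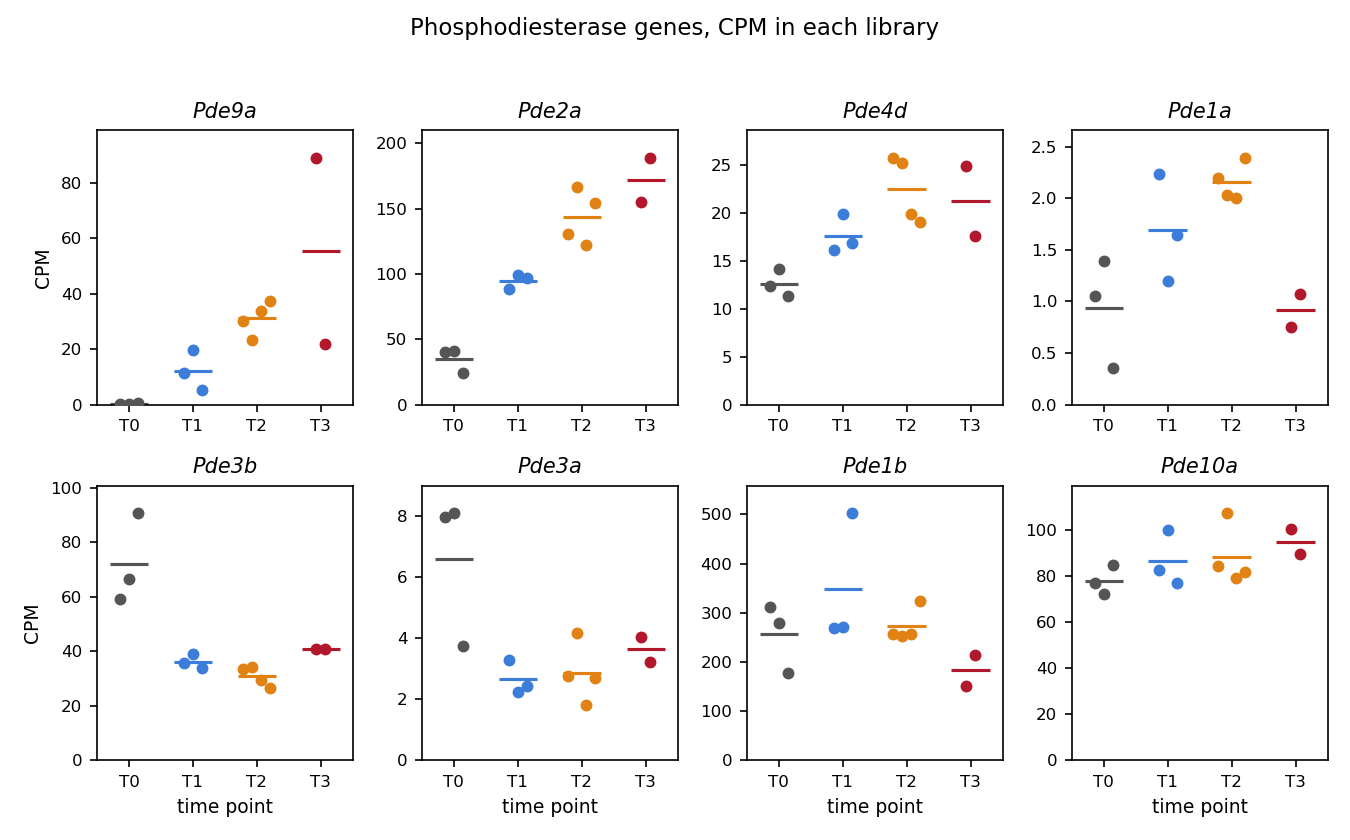
CPM of 8 phosphodiesterase genes in each library (points, vertical axes start at 0) with the mean of each time point (lines). Pde2a and Pde4d rise from T0, Pde3b falls, Pde9a starts near 0 and its T3 points lie at 89.11 and 21.96 CPM, and Pde1b and Pde10a overlap between T0 and T2.

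Among the phosphodiesterases, Pde2a, Pde4d and Pde1a rose and Pde3a and Pde3b fell. Pde2a (chromosome 7, 108570212 to 108661340), through which cGMP can lower cAMP, was the one that rose in all comparisons with T0. It had 39.91, 41.1 and 24.33 CPM at T0 and 88.17, 98.86 and 96.95 CPM at T1. At T2 it had 130.6, 166.6, 122.0 and 154.0 CPM and at T3 154.9 and 189.1 CPM. T0, T1 and T2 did not overlap, and T3 overlapped T2. The rise from T0 was 2.69-fold at T1 (95% interval 1.91 to 3.78), 4.13-fold at T2 (2.97 to 5.74) and 4.95-fold at T3 (3.14 to 7.80), with edgeR adjusted p = 0.0034, 0.00019 and 0.020. Without T0 replicate 3 the log2 fold changes were 1.22, 1.84 and 2.10 in place of 1.43, 2.05 and 2.31. The T3 call was lost without T0 replicate 1 (0.071), T0 replicate 2 (0.084), T3 replicate 1 (0.15) or T3 replicate 4 (0.085).

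Pde4d (chromosome 13, 109240142 to 110743669), one of the rolipram-sensitive cAMP enzymes, had 12.38, 14.16 and 11.35 CPM at T0 and 16.12, 19.95 and 16.89 CPM at T1. It had 25.8, 25.18, 19.93 and 19.05 CPM at T2 and 24.87 and 17.65 CPM at T3. All later libraries were above T0. Its change passed the threshold at T2 (log2 fold change 0.85 with SE 0.17, edgeR adjusted p = 0.0047), also with any 1 library left out, and not at T1 (0.48, edgeR adjusted p = 0.065) or T3 (0.77, edgeR adjusted p = 0.12). At T1 it passed without T0 replicate 3.

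Pde1a (chromosome 2, 79674610 to 79969632), a calmodulin-activated enzyme, had 5 to 39 reads a library. It had 1.05, 1.40 and 0.353 CPM at T0, 2.24, 1.20 and 1.65 CPM at T1, 2.20, 2.04, 2.00 and 2.40 CPM at T2, and 0.754 and 1.08 CPM at T3. The T2 libraries lay above T0 and above T3, with a rise at T2 of 1.22 on the log2 scale (with SE 0.41, edgeR adjusted p = 0.039). The call was lost without T0 replicate 1 or without any 1 of the T2 libraries (edgeR adjusted p = 0.070 to 0.092). In the FPKM values the difference had the other sign (-0.40 with a pseudocount of 0.1, limma adjusted p = 0.70). FPKM was 3.11 in T0 replicate 1, 3.16 in T1 replicate 2 and at most 0.692 in the other libraries, whereas those libraries held 14 and 16 reads of the gene.

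The enzymes inhibited by cGMP moved the other way. Pde3b (chromosome 7, 121558795 to 121682765), known for cAMP breakdown under insulin, had 59.04, 66.5 and 90.76 CPM at T0 and 35.77, 38.85 and 33.84 CPM at T1. It had 33.64, 34.07, 29.3 and 26.36 CPM at T2 and 40.87 and 40.68 CPM at T3, so that every later library lay below T0. It fell by 1.00 at T1 on the log2 scale (with SE 0.18, edgeR adjusted p = 0.0078) and by 1.21 at T2 (with SE 0.17, edgeR adjusted p = 0.00094), in each case also with any 1 library left out. The T3 value was -0.81 (with SE 0.23, edgeR adjusted p = 0.096). Without T0 replicate 3, in which it was highest, the values were -0.80, -1.01 and -0.61, the last then past the threshold as well.

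Pde3a (chromosome 6, 141197790 to 141447872), its relative known from heart muscle, platelets and oocytes, had 7.95, 8.09 and 3.74 CPM at T0 and 3.28, 2.24 and 2.44 CPM at T1. At T2 it had 2.77, 4.17, 1.82 and 2.70 CPM and at T3 4.02 and 3.23 CPM. T0 replicate 3 was the lowest T0 library and lay within the range of T2. Pde3a fell by 1.32 at T1 (with SE 0.36, edgeR adjusted p = 0.031) and by 1.19 at T2 (with SE 0.36, edgeR adjusted p = 0.027) on the log2 scale. Without T0 replicate 3 the values were -1.61 and -1.47. The T1 call was lost without T0 replicate 1 (0.08), T0 replicate 2 (0.082) or any 1 T1 library (0.074 to 0.12), and the T2 call without T0 replicate 1 (0.077), T0 replicate 2 (0.080) or T2 replicate 1, 3 or 4 (0.063 to 0.068).

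Of the phosphodiesterases with the highest FPKM at T0, Pde1b, Pde6d, Pde4b and Pde7a did not pass in any comparison. Pde1b (chromosome 15, 103333465 to 103360483), known from the striatum, had 310.8, 278.8 and 177.7 CPM at T0, 268.7, 271.7 and 502.8 at T1, 257.3, 253.4, 257.4 and 323.6 at T2, and 150.8 and 214.5 at T3. T1 replicate 3 was the highest library, and the T3 libraries lay below all T2 libraries. Pde4b (chromosome 4, 101760148 to 102279864) had 150.5, 149.8 and 142.7 CPM at T0, 138.8, 138.2 and 116.4 at T1, 128.3, 135.2, 117.2 and 107.1 at T2, and 135.0 and 116.5 at T3. All its later libraries lay below T0, with a log2 fold change of -0.26 at T2 (95% interval -0.51 to -0.01, edgeR adjusted p = 0.082). Pde6d (chromosome 1, 88439569 to 88479204) had 48.84, 46.68 and 49.43 CPM at T0 and between 37.21 and 49.23 CPM later. Its T2 values of 44.34, 37.77, 49.23 and 45.59 CPM overlapped T0, whereas T1 (44.13, 37.21 and 39.45) and T3 (40.79 and 42.95) lay below it without a call.

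The other genes tested without a call were Pde1c, Pde4a, Pde5a, Pde7a, Pde8b, Pde10a and Pde12. Pde4a, a cAMP enzyme, had 6.60 and 5.09 CPM in T0 replicates 1 and 2, 1.48 CPM in T0 replicate 3, and 1.40 to 2.39 CPM at T1. Its T1 difference of -1.30 did not pass (with SE 0.55, edgeR adjusted p = 0.11), but it passed without T0 replicate 3 and in the libraries numbered 1 and 2 alone (edgeR adjusted p = 0.00015 in the latter). Pde1c, activated by calmodulin, lay between 12.41 and 50.59 CPM, with both T3 libraries above T0 (0.87, edgeR adjusted p = 0.25). Pde10a, a striatal enzyme of both nucleotides, lay between 72.29 and 107.3 CPM in all libraries, with a log2 fold change at T2 of 0.19 (95% interval -0.11 to 0.50). Pde7a, specific to cAMP, stood at 62.84 ± 0.201 CPM at T0 (SD, n = 3) and at 55.56 ± 7.70 at T2 (SD, n = 4). Pde5a, the cGMP enzyme that sildenafil inhibits, lay between 7.87 and 14.9 CPM. Pde8b, a cAMP enzyme of high affinity, had 3.33 ± 0.411 CPM at T0 (SD, n = 3) and 7.96 and 8.29 CPM at T3, a log2 fold change of 1.30 (with SE 0.29, edgeR adjusted p = 0.061) that passed without T0 replicate 3 and by DESeq2. Pde12, a mitochondrial nuclease in spite of its name, had 49.79 CPM in T0 replicate 3 and 26.94 to 34.01 CPM in the other libraries, and 14.9% of its exon bases overlap those of Arf4. T0 replicate 3 was the lowest T0 library for 17 of the 24 tested genes and the highest for 5, beside 46.1% and 46.9% of all genes tested at T1.

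The 11 genes below the filter were Adcy4, Adcy10, Pde4c, Pde6a, Pde6b, Pde6c, Pde6g, Pde6h, Pde7b, Pde8a and Pde11a. None had more than 11 reads in a library, and only Pde6c had 0 in all 12. Adcy10, the soluble cyclase activated by bicarbonate, had 1 to 8 reads. Pde6g, the photoreceptor subunit with the highest mean FPKM over all libraries (though Pde6h was above it in the means of T1 and T3), had 1 to 10 reads (0.0705 to 0.910 CPM), while the summed level of 5 photoreceptor markers was at most 2.54 CPM. Differences in these genes were not tested in the edgeR fit. Pde8a had 2 to 3 reads a library at T0 and 3 to 11 at T2, and all its later libraries lay above T0 in CPM. Adcy10 had 1 to 3 reads at T0 and 5 to 6 at T1. Pde6b went the other way, with 1 to 2 reads at T0 and 0 at T2 and T3.

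Between neighbouring time points few genes passed. From T1 to T2, 2 of the 24 genes rose and 0 fell, beside 0.573% and 0.0565% of 12382 genes, with 1444 genes at an unadjusted p under 0.05. At that unadjusted p, with Pde9a left out, Adcy1, Adcy5, Adcy7, Adcy8, Pde2a, Pde4a and Pde4d were higher and 0 genes lower. DESeq2 called 4 higher and 0 lower. The 2 genes called by edgeR were Adcy1 (log2 fold change 1.03 with SE 0.19, edgeR adjusted p = 0.047) and Pde2a (0.61 with SE 0.11, edgeR adjusted p = 0.049), both also not overlapping. Each was near the threshold. Adcy1 was lost without any 1 T1 library, T2 replicate 1 or T2 replicate 4 (edgeR adjusted p = 0.05 to 0.23), and Pde2a without any 1 T1 library or T2 replicate 1, 2 or 4 (0.059 to 0.26). With the replicate number as a block, since same-numbered T1 and T2 libraries deviated together, both passed (edgeR adjusted p = 0.0056 and 0.027) and so did Adcy5 (log2 fold change 0.76 with SE 0.09, edgeR adjusted p = 0.015), which without the block did not (0.77 with SE 0.16, edgeR adjusted p = 0.075). Pde9a, whose values over the time points chose the family, is described here without a p-value. It was higher in all T2 than in all T1 libraries (1.39 with SE 0.35) and was not called. Without T1 replicate 2 the difference was 1.93. Pde9a is counted among the 24 genes but is left out of those named at the unadjusted p.

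From T2 to T3, 1 of the 24 genes rose and 0 fell, beside 0.5% and 0.691% of 12599 genes, with 2144 genes at an unadjusted p under 0.05. At that unadjusted p, 3 of the 24 were higher and 2 lower, and DESeq2 called 1 in each direction. The gene was again Adcy1 (log2 fold change 1.07 with SE 0.19, edgeR adjusted p = 0.049), whose call was lost without T2 replicate 1 (0.11), T2 replicate 3 (0.12), T2 replicate 4 (0.16) or T3 replicate 4 (0.057). Pde9a differed by 0.83 (95% interval -0.14 to 1.80), again as a description, and was not called. Without T3 replicate 4 the difference was 1.50, and without T3 replicate 1 it was -0.50. Pde1a (-1.26 with SE 0.35, edgeR adjusted p = 0.11), Pde1b (-0.58 with SE 0.17, edgeR adjusted p = 0.13) and Pde8b (0.72 with SE 0.21, edgeR adjusted p = 0.12) had T3 libraries outside the range of T2 and did not pass. The same held for Pde3b, whose T3 libraries lay above those of T2 and below those of T0 (0.40 with SE 0.14, edgeR adjusted p = 0.18). Over the 24 genes, Pde9a among them, the median log2 fold change was 0.13 from T1 to T2 and 0.17 from T2 to T3. For all genes tested it was 0.00 and 0.01.

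**Figure D5:**
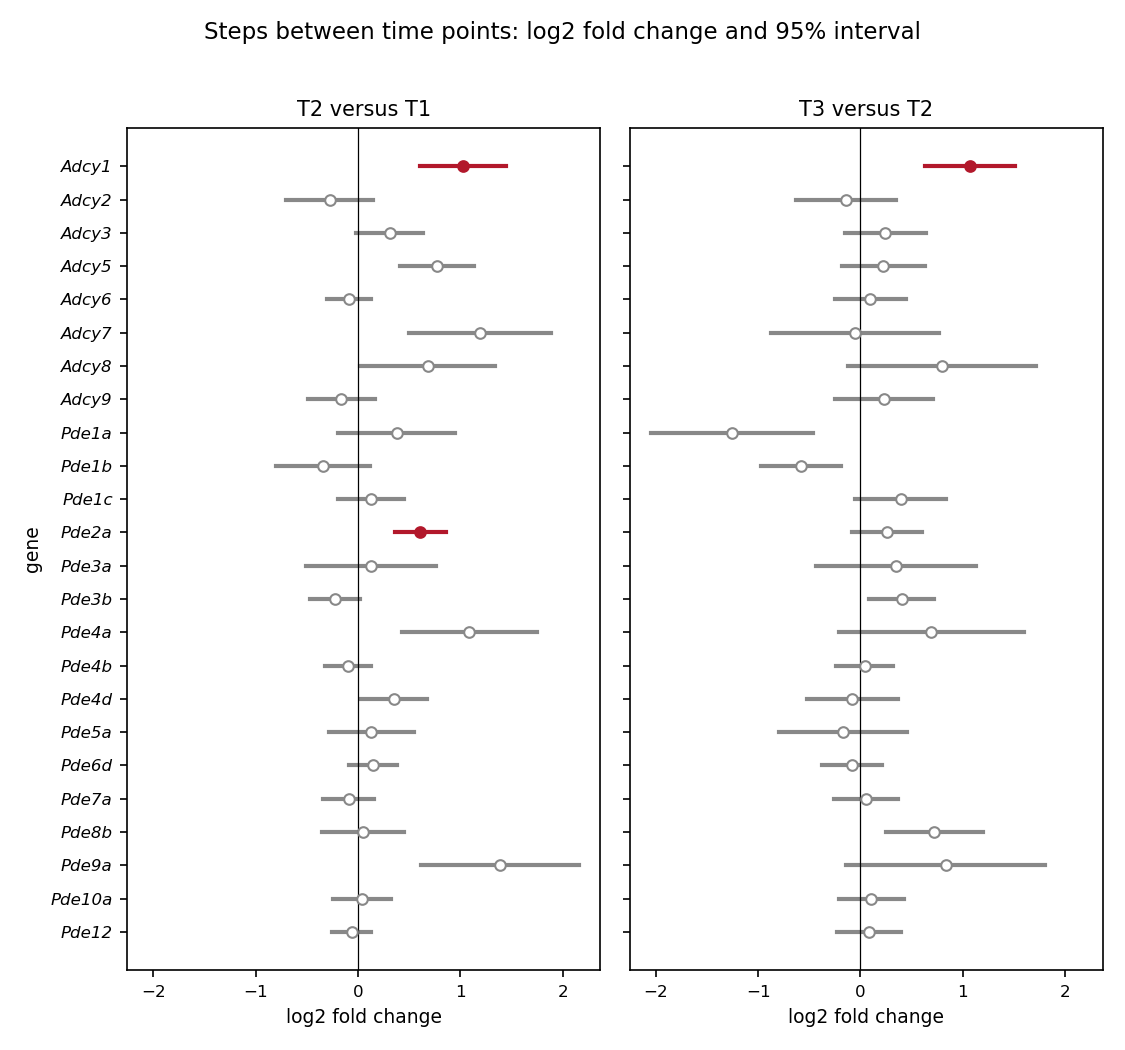
Log2 fold change (horizontal axis) with its 95% interval for the 24 tested genes from T1 to T2 and from T2 to T3, with filled red marks for genes called higher and open grey marks for genes not called. Adcy1 is red in both panels, Pde2a in the first alone, and the difference between the panels was not tested. The marks of Pde9a, which chose the family, are a description.

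The rest of the pathway was followed in 7 lists. Their median log2 fold changes at T2 against T0 were 0.07 for the G protein alpha subunits, 0.06 for protein kinase A, -0.17 for the other cAMP effectors, 1.10 for the cGMP-side genes, 0.08 for the A-kinase anchoring proteins, 0.16 for the CREB family and 0.05 for CREB target genes, beside 0.00 for all genes tested. These medians moved between time points. That of the other cAMP effectors was 0.75 at T1 and -0.22 at T3, and that of the cGMP-side genes 0.19 at T1 and 0.35 at T3, each over 7 tested genes. Of the 7 alpha subunits of the Gs and Gi classes, Gnal and Gnao1 rose in each comparison with T0 and the other 5 did not pass. Gnal, the Gs-like subunit that serves olfactory and striatal receptors, went from 3.53, 4.68 and 3.67 CPM at T0 to 6.72, 9.71 and 8.05 CPM at T1. Its T2 libraries had 13.95, 12.22, 11.28 and 12.66 CPM and its T3 libraries 24.96 and 12.92 CPM. Gnao1, the abundant Go subunit of neurons, went from 29.11, 29.86 and 33.36 CPM at T0 to 83.71, 97.2, 77.07 and 96.27 CPM at T2. Their log2 fold changes at T2 were 1.68 and 1.54 (edgeR adjusted p = 0.00027 and 9.1e-05).

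Of the 9 protein kinase A subunits and inhibitors, Pkia, an inhibitor of the kinase, rose in each comparison with T0 (70.15, 68.8 and 64.6 CPM at T0, and 137.4, 141.0, 168.4 and 121.6 CPM at T2, where the log2 fold change was 1.08, edgeR adjusted p = 0.00038). At T2 the regulatory subunit Prkar2b rose (0.42, edgeR adjusted p = 0.015) and the catalytic subunit Prkaca fell by 0.61 (edgeR adjusted p = 0.014). Prkaca was at 195.8 CPM in T0 replicate 3 and at 131.3 and 128.9 CPM in the other T0 libraries. At T3 Prkar1b rose too (2.74, edgeR adjusted p = 0.038), a gene named after its values were seen.

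Among 15 other cAMP effectors, 7 were tested. The genes Hcn2 and Hcn3, of the channel family opened by hyperpolarisation of which several members are modulated by cAMP, and the exchange factor Rapgef3 rose at T1 and T2, and the exchange factor Rapgef4 fell, while 0 passed at T3. Rapgef4 had 20.41, 16.89 and 33.64 CPM at T0, 4.02 to 6.59 CPM in the T1 and T2 libraries, and, at T3, 8.04 CPM in replicate 1 and 29.81 CPM in replicate 4. The change on the log2 scale was -2.37 at T1 (edgeR adjusted p = 0.002) and -2.06 at T2 (edgeR adjusted p = 0.00052). For Hcn2 the values were 1.25 and 1.72 (edgeR adjusted p = 0.0095 and 0.00087), and for Hcn3 1.23 and 1.45 (0.0038 and 0.0006). Rapgef3, named after its values were seen, rose by 0.94 and 0.74 (0.011 and 0.0079).

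On the cGMP side, 7 of 15 guanylyl cyclases, NO synthases and cGMP kinases were tested. Npr2, the receptor cyclase for C-type natriuretic peptide, rose at T1 (log2 fold change 2.77 with SE 0.53, edgeR adjusted p = 0.0092) and T2 (3.23 with SE 0.45, edgeR adjusted p = 0.00087), from 4.28, 2.93 and 0.705 CPM at T0 to 20.64, 24.62, 26.57 and 26.11 CPM at T2. At T2 the soluble cyclase subunits Gucy1a3 (2.02, edgeR adjusted p = 0.024) and Gucy1b2 (1.10, edgeR adjusted p = 0.039) and the kinase Prkg2 (1.44, edgeR adjusted p = 0.018) rose as well. The receptor cyclase Npr1 fell by 0.58 (edgeR adjusted p = 0.035). Gucy1b2 and Npr1 were named after their values were seen. At T3, 0 passed.

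Of 15 A-kinase anchoring proteins, which tether protein kinase A to its sites of action, 13 were tested. Akap3 and Akap7 rose in each comparison with T0, Akap7 from 8.85, 12.42 and 8.25 CPM at T0 to 25.13, 29.72, 29.76 and 33.42 CPM at T2 and 42.88 and 50.91 CPM at T3. Akap12 fell at T1 and T2, from 206.3, 213.4 and 720.9 CPM at T0 to 96.42, 105.0, 61.97 and 104.0 CPM at T2 (log2 fold change -2.04, edgeR adjusted p = 0.0069), with T0 replicate 3 far above the other T0 libraries. At T2 Akap5 (1.68, edgeR adjusted p = 0.0058) and Akap8l (0.62, edgeR adjusted p = 0.046) also rose and Akap13 fell by 0.82 (edgeR adjusted p = 0.014), these 3 named after their values were seen. Of the 7 genes of the CREB family and its coactivators, Crtc1 rose at T1 (0.50, edgeR adjusted p = 0.020) and T2 (0.43, edgeR adjusted p = 0.013), and Atf1 fell at T2 by 0.70 (edgeR adjusted p = 0.047), with 54.58 CPM in T0 replicate 3 and 26.86 and 28.19 CPM in the others. Of 8 immediate CREB target genes, Nr4a3 rose at T1 (1.03, edgeR adjusted p = 0.026) and T2 (0.91, edgeR adjusted p = 0.031) and Nr4a2 fell at T2 by 0.78 (edgeR adjusted p = 0.0078), while 0 passed at T3.

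Over the 7 lists, 11 of 57 tested genes were called higher and 2 lower at T1 (15.1% and 16.8% of all genes tested), and 17 of 56 higher and 7 lower at T2 (21.4% and 21.8%). At T3, 6 of 57 were called higher and 0 lower (3.31% and 1.41%), and 0 were called in either step between neighbouring time points. By edgeR at an unadjusted p under 0.05, 11 of 56 tested genes of the lists were higher and 2 lower from T1 to T2, where 1444 of all 12382 genes tested were at that level, and 13 and 5 of 57 from T2 to T3, where 2144 of 12599 were, while DESeq2 called 3 and 0 in the first step and 6 and 1 in the second. At T3 against T0, 16 were higher and 3 lower at that unadjusted p, and DESeq2 called 13 and 2. With each library left out in turn, 7 of the 13 calls at T1 held in all 6 fits and 16 of the 24 at T2 in all 7. At T1 the exceptions were Gnal (lost without T0 replicate 1 or T1 replicate 2 or 3, edgeR adjusted p up to 0.077), Akap3 (T0 replicate 1 or 2, T1 replicate 2 or 3, up to 0.13), Akap7 (T1 replicate 3, 0.05), Akap12 and Crtc1 (any T1 library, up to 0.12 and 0.081) and Nr4a3 (T0 replicate 1 or 2 or any T1 library, up to 0.095). At T2 they were Prkar2b (T0 replicate 1 or T2 replicate 1, up to 0.062), Prkg2 (T0 replicate 2 or T2 replicate 1, up to 0.053), Gucy1a3 (T2 replicate 1, 2 or 4, up to 0.062) and Atf1 (any T2 library, up to 0.10). Gucy1b2 (T0 replicate 1 or any T2 library, up to 0.10), Akap8l (T0 replicate 2 or any T2 library, up to 0.10), Npr1 (T0 replicate 1 or 2, T2 replicate 1, 2 or 4, up to 0.13) and Nr4a3 (the same libraries, up to 0.092) complete them. All 6 T3 calls were lost without T0 replicate 1, T0 replicate 2, T3 replicate 1 or T3 replicate 4, with edgeR adjusted p up to 0.15 for Akap7, 0.19 for Pkia, 0.20 for Akap3, 0.22 for Gnal, 0.23 for Gnao1 and 0.28 for Prkar1b.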

How the data were processed

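RNAseq libraries of ANS cells at T0, T1, T2 and T3 were grouped by their labels. The authors made polyA libraries (TruSeq v2, HiScanSQ, CASAVA 1.8) and aligned the reads to mm9 with TopHat2 2.0.6 and Bowtie 0.12.7.0. The deposited values are unnormalised counts per gene (the submitters' notes name HTSeq 0.6.0, and the strand setting is not given in the sources used here), and an FPKM table, the authors' own, whose tool is not given, with 0 columns of other samples. The 5 entries that name no gene were left out of library sizes; reads on no feature were 13.3% to 24.1% of uniquely aligned reads. The submitters' notes also name DESeq2 1.0.0.

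CPM values were computed from the counts with library sizes scaled by TMM over all 12 libraries. The counts were tested by quasi-likelihood in edgeR 4.0.16 (R 4.3.3) on the 2 groups of each of 5 comparisons, with TMM scaling, filterByExpr and Benjamini-Hochberg adjustment over all genes tested. The alternatives were DESeq2 1.42.0, other scaling and filters, one fit of all 12 libraries, a replicate block, the libraries numbered 1 and 2, each library left out, and limma 3.58.1 on log2(FPKM + 0.1) or log2(FPKM + 1), a scale that understates changes of low genes. Scripts were tested on simulated data.

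The members and all lists were chosen with earlier results of these data known. Values are given in every library for Pde9a, for members past the threshold in any comparison and for the member of each enzyme class with the highest mean FPKM, and for up to 3 genes of each pathway list, those called in most comparisons. The series' design text calls the libraries biological replicates. Deviations of same-numbered T1 and T2 libraries from their group means correlated at 0.325, 0.495 and 0.265 over 11347 genes, so there the numbers were taken to pair the cultures. T2 replicate 4, which has no T1 library of its number, correlated with T1 replicate 3 at 0.481, above the first and last of these values. Positions are of mm9 from the FPKM table, and 34 of the 35 genes overlapped their GENCODE vM1 entry.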

Additional observations from a re-analysis of the deposited data

Results flagged for a closer look

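Of the genes tested, 1 had a T2 library apart from the other 3 by Dixon's criterion. Pde1b in T2 replicate 4 stood at 323.6 CPM, with 253.4 to 257.4 CPM in the others, so that the gap took 0.942 of the whole range. By chance the criterion picks out about 1 in 20 groups. The criterion was not applied to the other time points, which have fewer libraries, so libraries standing apart there are not flagged.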

How the results depend on the processing

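Directions were followed for the called Adcy and Pde genes, and at T2 against T0 for up to 3 called genes of each pathway list. The other called pathway genes and comparisons were not in this check. The directions held except for Pde1a at T2, whose log2 fold change was -0.395 (pseudocount 0.1), -0.335 (pseudocount 1) and -0.395 (no filter) in FPKM with limma. Over all alternatives, 581 values of the genes followed kept their side of the threshold, 130 lost it and 3 reversed. The number of Adcy and Pde genes called was 7 at T1 against T0, and 11 in the libraries numbered 1 and 2 alone and 3 in FPKM without a filter. At T3 it was 3 in the fit reported, 7 by DESeq2, 9 in one fit of all 12 libraries, 6 in that fit with the replicate block and 0 in FPKM without a filter. From T1 to T2 it was 2 in the fit reported, 4 by DESeq2, 4 without a filter on low counts, 0 in one fit of all 12 libraries, with or without the block, and 0 in each FPKM setting. Pde9a was among the 4 without a filter, and it stays in the counts of both steps between neighbouring time points. From T2 to T3 it was 1 in the fit reported, 2 by DESeq2, 2 without a filter, 0 with at least 10 counts in every library, 0 in one fit of all libraries with the block and 0 in each FPKM setting. The causes were not tested. The shares of all genes called in the alternatives are not given, so a higher or lower count here is not a result about these genes. With 1 library left out the counts ranged from 5 to 10 at T1, 6 to 12 (10 in the fit reported) at T2 and 0 to 7 at T3 against T0, from 0 to 2 between T1 and T2 and from 0 to 1 between T2 and T3.

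Same-numbered T1 and T0 libraries deviated together weakly, with correlations of 0.019, 0.154 and 0.11. For T2 and T0 these were -0.09, 0.051 and -0.142, and for T3 and T2 -0.065 and 0.299. T3 replicate 1 went with T0 replicates 1 and 2 (0.479 and 0.483). Deviations from a group mean add up to 0, so T3 replicate 4 going with T0 replicate 3 (0.507) is the same result and not a further one. The numbers were therefore not taken as pairs in these comparisons. With the replicate block, 7 genes were called at T1 against T0, 8 at T2 against T0, 3 between T1 and T2 and 1 between T2 and T3. T3 and T0 share the number 1 alone, so no blocked fit was made. Depth limits the 11 genes that were not tested, with at most 11 reads in any library.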

Other observations

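For Pde1a the ratio of FPKM to CPM varied 20.7-fold over the libraries, from 0.143 in T3 replicate 4 to 2.96 in T0 replicate 1, and for Pde3b 3.05-fold and for Adcy3 2.94-fold. For Adcy2 the ratio varied 1.34-fold and for Adcy6 1.36-fold. For Adcy1 the ratio varied 1.67-fold, from 0.065 in T2 replicate 2 to 0.109 in T0 replicate 3. For Pde9a it varied 4.68-fold, with both extremes among T0 libraries of at most 2 reads.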
